A study of Canis lupus familiaris with 34 samples.

Results

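The insulin-like growth factor (IGF) genes described here are the ligands IGF1 and IGF2, the receptors IGF1R and IGF2R and the 6 binding proteins IGFBP2 to IGFBP7. They were found by symbol in the deposited table, and these 10 genes were 10 of 23768 listed features. Where a gene was listed both as a canine RefSeq feature and as a human alignment (IGF1, IGF2 and IGF2R), the canine feature was used. All 10 genes passed the filter on low counts, which kept 19568 features.

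RNA from mitral valves of 34 Cavalier King Charles Spaniels, a breed prone to myxomatous mitral valve disease (MMVD), was sequenced. The group 10y-noCHF held 19 privately owned dogs of about 10 years without congestive heart failure (CHF), labelled as controls, of which 10 were female and 9 male. It was not a group of healthy dogs, since nearly all of its members had valve disease at a stage before heart failure. The group 10y-MMVD-CHF held 15 dogs of about the same age whose MMVD had led to CHF, 6 of them female and 9 male. A response to diuretic treatment was among the criteria for CHF. No genotype is given for the dogs of either group, and each library came from the valve of a different dog. The comparison of the groups asked which genes of the valve differ in level once MMVD has advanced to CHF.

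IGF1 and IGF2 are secreted growth factors that signal through IGF1R, a receptor tyrosine kinase, while IGF2R takes IGF2 up for degradation and sorts lysosomal enzymes. The binding proteins hold IGFs in the extracellular space and either withhold them from the receptor or release them when proteases cut the binding protein. In heart valves the IGF system is known for its role in growth of the leaflets and in the behaviour of interstitial cells, the fibroblast-like cells that make the valve matrix.

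Total counts ranged from 48784642 to 81843830 in the 10y-noCHF dogs and from 46185256 to 82361245 in the 10y-MMVD-CHF dogs. The unit of level is CPM, the count of a feature relative to the TMM-scaled library size. All 10 markers of valve interstitial cells and all 8 endothelial markers had counts in every dog, as the tissue label requires. The summed level of 19 cardiomyocyte markers ranged from 153 to 30060 CPM in the 10y-noCHF dogs and from 175 to 60369 CPM in the 10y-MMVD-CHF dogs, so the amount of heart muscle RNA differed widely between valves of both groups. It was highest in the 10y-MMVD-CHF female CAV1047. The summed level of 8 red blood cell genes reached 4269 CPM in the 10y-MMVD-CHF male CAV614, against at most 1026 CPM in the 10y-noCHF dogs. Of the cardiomyocyte markers MYL2 was at 0 in at least 1 dog. Summed levels ranged from 13582 to 36224 CPM for interstitial cell markers, 479 to 1739 CPM for endothelium, 1584 to 5838 CPM for smooth muscle, 503 to 1835 CPM for macrophages, 5.42 to 169 CPM for adipocytes and 1.10 to 25.9 CPM for skeletal muscle. In the CHF comparison (edgeR, FDR under 0.1) 1 of the 8 endothelial markers and none of the other lists' markers passed, and the part of these cells in the IGF values was not tested. Where the number of calls changed without CAV1047 or CAV614, this is given beside the results concerned. In whole tissue, fewer cells of a type and less RNA per cell cannot be told apart.

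The IGF genes lie on 9 dog chromosomes (build canFam4). IGF1 was counted over 4 exon blocks of 627 bases on the minus strand of chromosome 15, between 41495478 and 41567874. IGF2 was counted over 5 blocks of 1188 bases on the minus strand of chromosome 18, between 46751968 and 46766988. The third canine feature, IGF2R, comprised 48 blocks of 9079 bases on the plus strand of chromosome 1, between 49714383 and 49814084. The other 7 genes were listed as single blocks that run from the first to the last base of the aligned gene, introns and UTRs included. These blocks were IGF1R on chromosome 3 (42178556 to 42481580), IGFBP2 and IGFBP5 on chromosome 37 (23427619 to 23452391 and 23458320 to 23480109), and IGFBP3 on chromosome 16 (233128 to 239881). IGFBP4 was listed on chromosome 9 (22120099 to 22132535), IGFBP6 on chromosome 27 (44580863 to 44584722) and IGFBP7 on chromosome 13 (49899969 to 49969221). IGFBP2 and IGFBP5 are neighbours on opposite strands, and 5928 bases separate their 3′ ends.

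Depth differed strongly among the features used, which are exon blocks for some genes and whole spans for others. IGFBP7 had the most counts, 1676769 over the 34 dogs, and the exon feature of IGF1 the fewest, 4754, with 72 to 274 counts per dog. Over its whole span IGF1 had 72913 counts, more than IGFBP3, so this order does not rank the genes. IGFBP3 had 14078 counts, and its lowest dog had 32 counts. Both reads of a pair were counted, so these numbers are reads and not molecules. The binding protein IGFBP1 had 2 counts in all 34 dogs together and was not tested.

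Of the reads on the 6 binding proteins, IGFBP7 took 61.4% ± 6.65 (SD, n = 34) and IGFBP5 took 22.9% ± 5.29. IGFBP6 followed with 7.01% ± 2.11 and IGFBP4 with 6.18% ± 1.37, while IGFBP2 took 2.0% ± 1.45 and IGFBP3 0.580% ± 0.375. IGFBP6 and IGFBP4 did not differ beyond their spread in this order. These are shares of reads over spans of unequal length that include introns, so they do not rank the genes by level. The IGFBP7 span also shares 274 bases with POLR2B (317878 counts) and 352 with IGFBP7-AS1 (77939 counts), both on the other strand. Reads on these bases count for each feature, and their part in the IGFBP7 reads was not tested. IGFBP7 is a secreted protein of the extracellular matrix with low affinity for IGFs, IGFBP5 binds matrix as well as IGFs, and IGFBP6 prefers IGF2. The share of IGFBP7 was 61.0% ± 5.96 in the 19 10y-noCHF dogs and 61.8% ± 7.62 in the 15 10y-MMVD-CHF dogs.

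A level per length could be compared only among the 3 genes counted over exons. IGF2R had the highest level per length, 6.93 ± 2.12 CPM per kb (SD, n = 34), followed by IGF2 with 4.69 ± 1.90 and IGF1 with 3.62 ± 1.37 CPM per kb. Per length, IGF2R was above IGF1 in 32 of 34 dogs and above IGF2 in 29. IGF2 was above IGF1 in 23 of 34 dogs, and their ranges overlapped (0.630 to 8.36 and 1.68 to 6.91 CPM per kb). The IGF1 feature covers only 0.866% of the span of its gene, so its level per length depends on which exons the annotation lists.

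The CHF comparison showed no IGF gene that passed the threshold. With edgeR's quasi-likelihood test and sex as a fixed effect, 0 of the 10 genes had an FDR under 0.1, and 0.118% of all 19568 features did. No IGF gene had an unadjusted p under 0.05 in this fit either, against 6.31% of all features, of which 2.8% were higher and 3.51% lower in the 10y-MMVD-CHF group. DESeq2 called 0 of the 10 genes as well and 0.327% of all features, and limma voom called 0. Fitted log2 fold changes were above 0 for 8 genes and below 0 for 2, with a median of 0.06 beside 0.01 over all features. Their adjusted p (edgeR) ranged from 0.866 to 0.989. The intervals of the fold changes still include differences of some size for several genes, and their bounds are given with each gene.

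**Figure D1:**
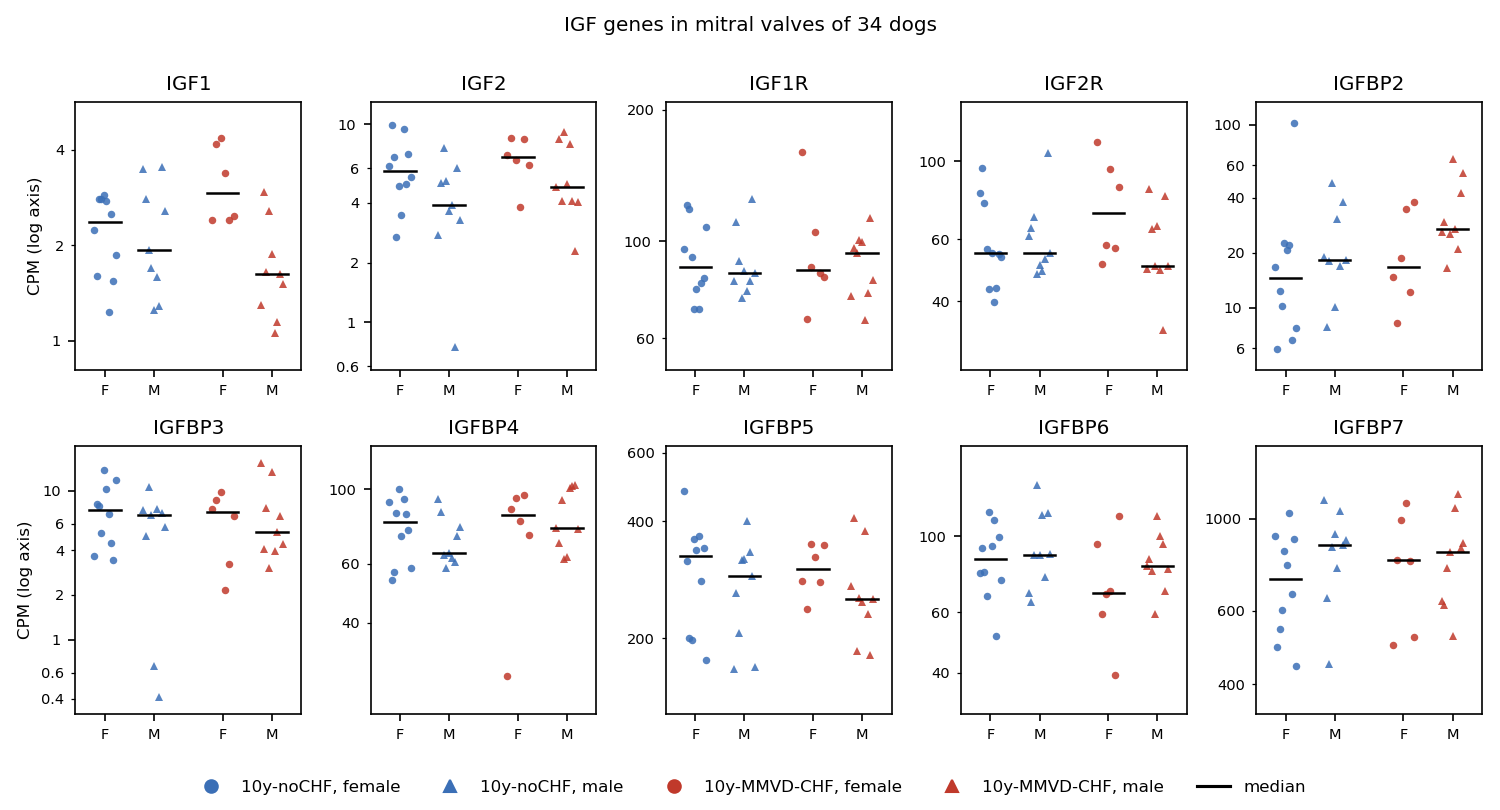
Level of each IGF gene in CPM (log axis) in 34 mitral valves, with 1 point per dog, split by group (blue 10y-noCHF, red 10y-MMVD-CHF) and by sex (F, M). Black lines are medians. The groups overlap for all 10 genes, and CAV579 stands high for IGFBP2 (102 CPM) and CAV1047 low for IGFBP4 (27.8 CPM).

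Among the ligands, IGF1 ranged from 1.23 through a median of 2.23 to 3.51 CPM in the 10y-noCHF dogs. In the 10y-MMVD-CHF dogs it ranged from 1.06 through 2.41 to 4.33 CPM. The groups overlapped over nearly their whole range, and the fitted fold change of IGF1 was 1.04 (95% interval 0.802 to 1.34, p = 0.776 with edgeR). IGF2 ranged from 0.748 through 5.06 to 9.94 CPM in the 10y-noCHF dogs and from 2.28 through 6.25 to 9.18 CPM in the 10y-MMVD-CHF dogs. The lowest dog for IGF2, the 10y-noCHF male CAV749, lay well below the rest, and 8 of 15 dogs with CHF were above the 10y-noCHF median. The fold change of IGF2 was 1.22 (0.897 to 1.65, p = 0.200 with edgeR).

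The tyrosine kinase receptor IGF1R ranged from 70.1 through 84.8 to 125 CPM in the 10y-noCHF dogs and from 66.0 through 87.1 to 160 CPM in the 10y-MMVD-CHF dogs. The highest value of IGF1R was that of CAV1047, the dog with the highest cardiomyocyte marker level. Its fold change was 1.02 (0.888 to 1.18, p = 0.732 with edgeR), and without CAV1047 the log2 fold change went from 0.04 to -0.05 (SE 0.0920, p = 0.579, edgeR). IGF2R, the clearance receptor, ranged from 39.8 through 54.9 to 105 CPM in the 10y-noCHF dogs and from 33.2 through 57.9 to 113 CPM in the 10y-MMVD-CHF dogs. CAV614 was the lowest and CAV1047 the highest of all 34 dogs for IGF2R, so the group with CHF spanned the group without it. Its fold change was 1.08 (0.889 to 1.32, p = 0.412 with edgeR).

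IGFBP2, a binding protein with a preference for IGF2, was the most variable of the 10 genes, with a coefficient of variation of 76.6% over the 34 dogs. It ranged from 5.97 through 17.9 to 102 CPM in the 10y-noCHF dogs and from 8.31 through 26.0 to 65.4 CPM in the 10y-MMVD-CHF dogs. A single 10y-noCHF female, CAV579, lay above every other dog of both groups. Of the 15 dogs with CHF, 11 were above the 10y-noCHF median of IGFBP2. The fold change was 1.21 (0.754 to 1.93, p = 0.423, edgeR). Without CAV579 the log2 fold change of IGFBP2 went from 0.27 to 0.59 (SE 0.253, unadjusted p = 0.0262), and with an adjusted p of 0.746 (edgeR) it did not pass the threshold.

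IGFBP3, the main IGF carrier of the circulation, ranged from 0.413 through 6.96 to 13.8 CPM in the 10y-noCHF dogs and from 2.17 through 6.73 to 15.3 CPM in the 10y-MMVD-CHF dogs. The 10y-noCHF males CAV749 and CAV488 stood apart at the low end with 0.413 and 0.662 CPM, which were 32 and 38 counts. The fold change of IGFBP3 was 1.04 (0.666 to 1.63, p = 0.850 with edgeR), and 62.7% of its bases also lie under a human alignment of AKR1D1 on the other strand that holds only 1835 counts. For IGFBP4, which is cut by the protease PAPPA, the values were 53.8 through 72.8 to 100.4 CPM in the 10y-noCHF dogs and 27.8 through 80.6 to 103 CPM in the 10y-MMVD-CHF dogs. CAV1047 was the lowest dog for IGFBP4 by a wide margin. Its fold change was 1.08 (0.913 to 1.29, p = 0.346), and without CAV1047 the log2 fold change was 0.20 (SE 0.0947, unadjusted p = 0.0434, adjusted p = 0.674, all edgeR).

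IGFBP5 ranged from 166 through 316 to 479 CPM in the 10y-noCHF dogs and from 181 through 272 to 407 CPM in the 10y-MMVD-CHF dogs. Only 5 of 15 dogs with CHF were above the 10y-noCHF median, yet the fold change of IGFBP5 was 0.984 (0.813 to 1.19, p = 0.863 with edgeR). For IGFBP6 the range was 51.3 through 88.4 to 141 CPM in the 10y-noCHF dogs and 39.4 through 80.1 to 115 CPM in the 10y-MMVD-CHF dogs. IGFBP6 had the smallest p of the 10 genes, with a fold change of 0.883 (0.739 to 1.05, p = 0.164, adjusted p = 0.866, edgeR), and 5 of 15 dogs with CHF were above the other group's median. IGFBP7 ranged from 441 through 837 to 1106 CPM in the 10y-noCHF dogs and from 497 through 795 to 1147 CPM in the 10y-MMVD-CHF dogs. Its values spread alike in both groups, and its fold change was 1.02 (0.847 to 1.24, p = 0.807 with edgeR).

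**Figure D2:**
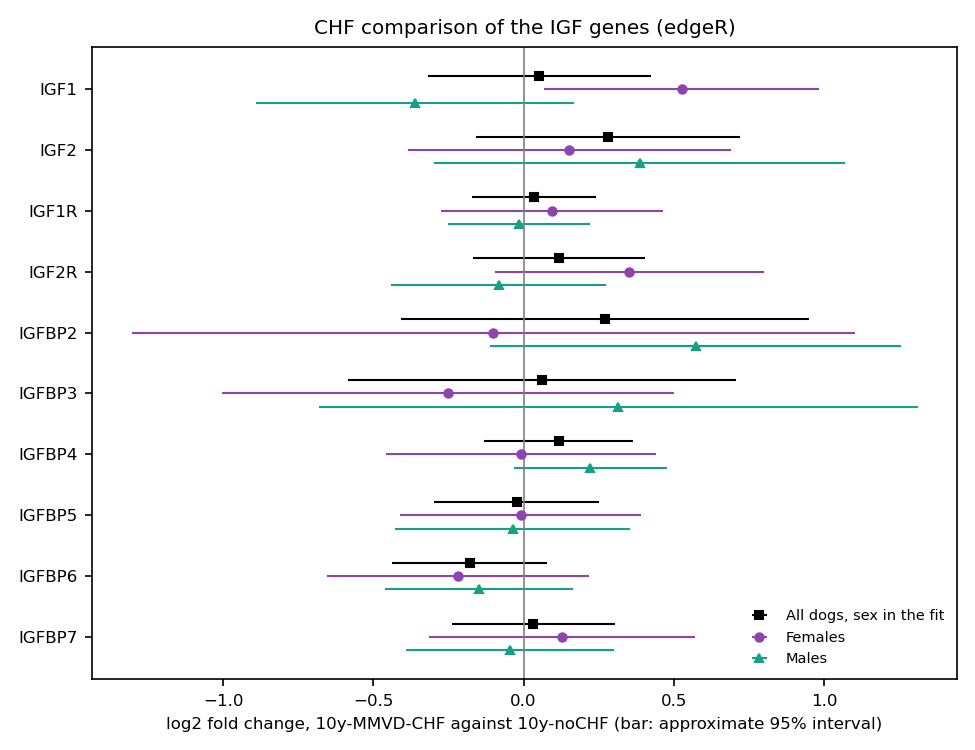
Fitted log2 fold changes of 10y-MMVD-CHF against 10y-noCHF for the 10 IGF genes, for all dogs with sex in the fit (black squares, n = 34) and for females (purple circles, n = 16) and males (green triangles, n = 18) alone. Bars are approximate 95% intervals. All intervals of the 34 dogs cross 0. The interval of IGF1, counted over its exons, lies above 0 in females (log2 fold change 0.53), but did not pass the threshold (adjusted p = 0.381, edgeR).

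Both sexes were present in both groups, so sex and its interaction with CHF could be tested. For male against female dogs 0 of 10 IGF genes had an FDR under 0.1 (0.143% of all features), and 1 gene, IGF1, had an unadjusted p under 0.05 (2.98% of all features). Both ligands had lower fitted levels in males, IGF1 with a log2 fold change of -0.38 (SE 0.181, p = 0.0439) and IGF2 with -0.42 (SE 0.215, p = 0.0585), and both had an adjusted p of 0.9997 (edgeR). Over its gene span IGF1 had a log2 fold change of -0.12 for male against female (p = 0.290, edgeR), and IGF2 one of -0.43 (SE 0.184, p = 0.0246, adjusted p = 0.9997, edgeR). The number of IGF genes with an unadjusted p under 0.05 for sex was 2 with DESeq2 and with voom. It was 1 in 15 of the 34 fits that left out a dog and ranged from 0 to 2, with 0 when CAV614 was left out. IGF2 was at a median of 5.78 CPM in 10y-noCHF females and 3.89 CPM in the males of that group. With CHF its median was 6.79 CPM in females and 4.81 CPM in males, and the sexes overlapped in each group.

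The interaction of CHF and sex passed the adjusted threshold for 0 of 10 IGF genes and for 0% of all features. The unadjusted p was under 0.05 for IGF1 alone, beside 6.02% of all features. IGF1 ranged from 1.23 through 2.36 to 2.87 CPM in 10y-noCHF females and from 2.41 through 2.92 to 4.33 CPM in 10y-MMVD-CHF females. In males it ranged from 1.25 through 1.93 to 3.51 CPM without CHF and from 1.06 through 1.62 to 2.94 CPM with CHF. All 6 females with CHF were above the median of the 10y-noCHF females, while the median of the males was lower with CHF than without it, and the groups overlapped in both sexes. The interaction of IGF1 had a log2 value of -0.88 (SE 0.339, p = 0.0134, adjusted p = 0.815, edgeR). Fitted within each sex, the log2 fold change of IGF1 with CHF was 0.53 in females (p = 0.0267, adjusted p = 0.381) and -0.36 in males (p = 0.169, edgeR).

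This pattern depended on how IGF1 was counted. The exon feature held 6.52% of the 72913 reads listed for the whole span of IGF1 (41489070 to 41567973). After the mean of each group and sex was removed, log2 CPM of the exon and span features correlated weakly across the 34 dogs (Pearson's r 0.302, Spearman's rho 0.287). Over the whole span IGF1 ranged from 25.7 through 35.4 to 50.7 CPM in the 10y-noCHF dogs and from 18.4 through 30.5 to 48.1 CPM in the 10y-MMVD-CHF dogs. The dogs with CHF were on the lower side here, with a log2 fold change of -0.22 (SE 0.112, p = 0.0565, adjusted p = 0.789, edgeR), which is opposite in sign to the exon feature. The interaction with sex over the span was -0.09 (SE 0.227, p = 0.679, edgeR). For IGF2 and IGF2R the exon and span features moved together (r 0.908 and 0.999, with group and sex means removed), and IGF2R exons held 97.5% of the reads of the span. The exons of IGF2 held 17% of the 68434 reads of its span, and the read-through gene INS-IGF2 covers the same bases.

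**Figure D3:**
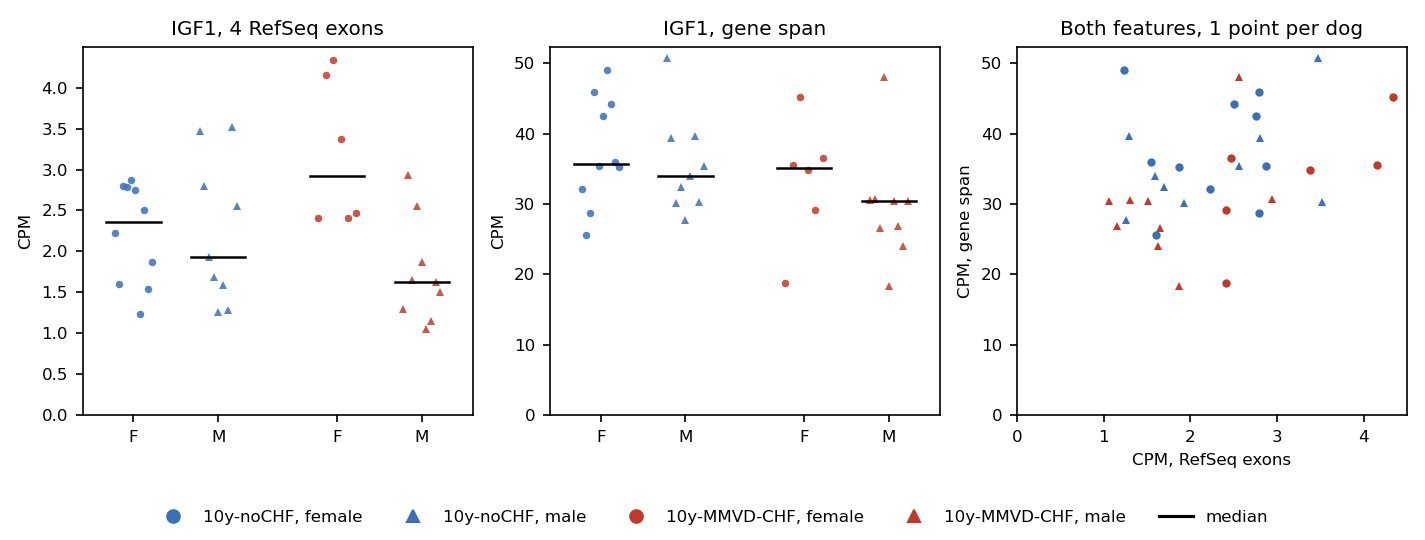
IGF1 counted over its 4 RefSeq exons (left) and over the whole gene span (middle), in CPM per dog by group and sex with medians as black lines, and the exon against the span level for each of the 34 dogs (right). Over the exons the females with CHF (2.41 to 4.33 CPM) lie above most other dogs, whereas over the span both sexes with CHF overlap the dogs without it. The right panel shows CPM as measured. On log2 CPM with the mean of each group and sex removed, the 2 features correlate weakly (r 0.302).

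The IGF genes were then set beside the amount of heart muscle RNA, as the mean log2 CPM of 19 cardiomyocyte markers. This mean was 6.04 ± 3.26 (SD, n = 19) in the 10y-noCHF dogs and 6.4 ± 2.82 (n = 15) in the 10y-MMVD-CHF dogs. With group and sex in the fit, 2 of 10 IGF genes rose with the marker mean (FDR under 0.1, 19.1% of all features) and 2 fell (18.5% of all features), so the IGF genes passed about as often as features in general. The slopes are log2 changes of a gene per 1 log2 unit of the marker mean. Both receptors rose, IGF1R with a slope of 0.06 (SE 0.0138, adjusted p = 0.00209) and IGF2R with 0.07 (SE 0.0194, adjusted p = 0.00320, edgeR). IGFBP7 fell with a slope of -0.07 (SE 0.0187, adjusted p = 0.00249), and IGFBP4 with -0.04 (SE 0.0193, adjusted p = 0.0753, edgeR). The call of IGFBP4 was lost without CAV1047 (adjusted p = 0.170) and without CAV614 (0.119, edgeR). IGF1 did not pass over its exons (slope -0.01, p = 0.741) but fell when counted over its gene span (slope -0.06, SE 0.0154, adjusted p = 0.00174, edgeR), and 5 of 10 genes passed with the span features.

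The slopes of IGF1R, IGF2R and IGFBP7 passed within each group as well, with adjusted p (edgeR) of 0.0745, 0.0618 and 0.0705 in the 10y-noCHF dogs and of 0.0158, 0.00278 and 0.0534 in the 10y-MMVD-CHF dogs. The share of all features that passed within a group was not computed, so the calls within groups cannot be set against it. With all dogs in the fit, 19.1% of all features passed with a positive slope and 18.5% with a negative one. IGFBP4 did not pass within the 10y-noCHF dogs (adjusted p = 0.257) or within the 10y-MMVD-CHF dogs (0.128, edgeR). IGFBP2 passed in the 10y-MMVD-CHF dogs alone, with a slope of 0.16 (SE 0.0569, adjusted p = 0.0655, edgeR) beside -0.01 in the 10y-noCHF dogs, and the difference between these slopes was not tested. With the marker mean as a covariate the CHF comparison again called 0 of 10 IGF genes. Whether the receptors and binding proteins in these valves came from muscle or from valve cells was not tested.

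**Figure D4:**
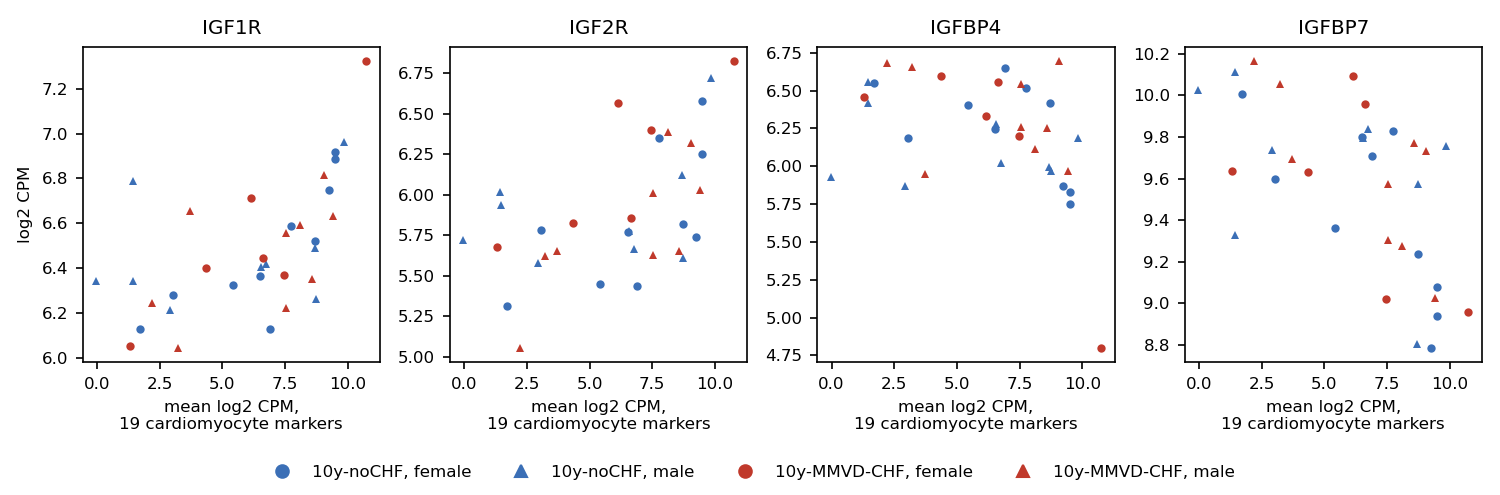
Level of IGF1R, IGF2R, IGFBP4 and IGFBP7 (log2 CPM) against the mean log2 CPM of 19 cardiomyocyte markers, with 1 point per dog, coloured by group (blue 10y-noCHF, red 10y-MMVD-CHF) with circles for females and triangles for males. The receptors are higher and IGFBP7 is lower in dogs with a high marker mean, and the isolated low point of IGFBP4 is CAV1047 (27.8 CPM).

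Among themselves the 10 genes formed 45 pairs, which were correlated across the 34 dogs on the log2 scale after the mean of each group and sex was removed. Permutation tests within group and sex (100000 resamples, two-sided, adjusted over the 45 pairs) gave 5 pairs with an FDR under 0.1, of which 3 also passed by Spearman's rho. The number by Pearson's r was 4 without CAV614 and 3 without CAV1047, and which pairs were lost was not recorded. How often pairs of other features pass was not computed, so the count is not a trait of the IGF genes. Outside them, IGF1R had a rho of 0.908 with PDPR2P. The strongest of the 45 pairs was that of the receptors. IGF1R and IGF2R had r = 0.808 and rho = 0.803 (permutation p = 1e-05 for each, the smallest the test can give, adjusted p = 0.00045), and r was 0.855 in the 10y-noCHF dogs and 0.766 in the 10y-MMVD-CHF dogs. Without the dogs farthest from the median, CAV1047 and CAV865, r was 0.765, and after the marker mean was also removed it was 0.694.

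IGFBP4 and IGFBP7 followed with r = 0.604 and rho = 0.630 (permutation test, adjusted p = 0.00225 and 0.00315). Without CAV1047 and CAV1114 r was 0.554, and after removal of the marker mean it was 0.468. IGFBP2 and IGFBP6, both with a preference for IGF2, had r = 0.578 and rho = 0.597 (permutation test, adjusted p = 0.00900 and 0.00780), which was 0.577 without CAV579 and CAV444 and 0.567 with the marker mean removed. The correlations within the groups were 0.674 without CHF and 0.450 with CHF.

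The most negative pairs joined the receptors with IGFBP4 and IGFBP7. IGF1R and IGFBP4 had r = -0.580 (permutation test, adjusted p = 0.0582) and rho = -0.432 (adjusted p = 0.122), and r was -0.436 without CAV1047 and CAV865. IGF1R and IGFBP7 had r = -0.482 and rho = -0.437 (permutation test, adjusted p = 0.0700 and 0.122), with -0.462 after CAV1047 and CAV865 were left out. For IGF2R and IGFBP7 r was -0.429 and rho was -0.416 (permutation test, adjusted p = 0.104 and 0.134), with -0.436 when CAV865 and CAV1114 were left out. With the marker mean removed, these correlations were -0.430, -0.203 and -0.104, and none of the 3 passed the threshold. IGFBP2 and IGFBP5, named here for their position next to each other, had r = 0.333 (permutation p = 0.0776).

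**Figure D5:**
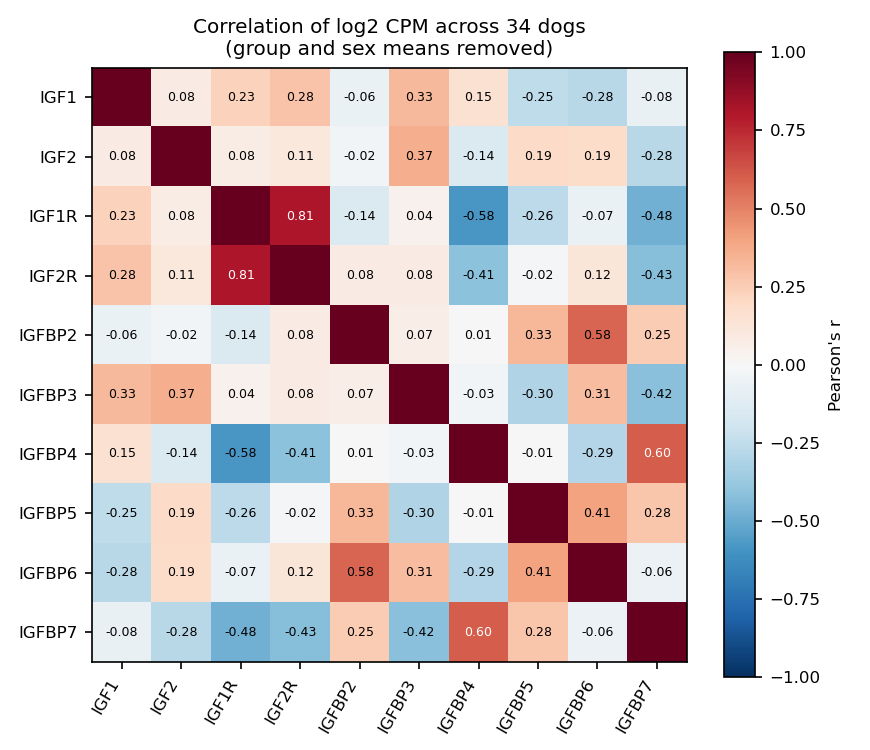
Pearson correlations between the 10 IGF genes across 34 dogs, computed on log2 CPM after the mean of each group and sex was removed (red positive, blue negative). The pair IGF1R and IGF2R stands out (0.81), IGFBP4 with IGFBP7 (0.60) and IGFBP2 with IGFBP6 (0.58) follow, and IGF1R is negative against IGFBP4 (-0.58).

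The features whose pattern was most like that of each IGF gene were ranked by Spearman's rho among 15927 features with a mean of at least 0 log2 CPM, as a description over 34 dogs. IGF2R was most like DAG1 (rho 0.916), which encodes dystroglycan, and the NOMO1 and NOMO2 features, near-identical copies with the same rho of 0.908. Closest to IGF1R were PDPR2P (0.908), the flippase gene ATP9A (0.906) and UTRN, the gene of utrophin (0.898). IGFBP7 had TMEM59L (0.853), SNX22 (0.852) and the proline synthesis gene ALDH18A1 (0.851) nearest to it. IGF2 was most like HIC1, a transcriptional repressor (0.740), GFRA1, a receptor for GDNF (0.692), and the leptin receptor LEPR (0.662).

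For the exon feature of IGF1 the highest values were those of LOC643201 (0.678), CCDC157 (0.661) and MTMR3 (0.645). IGFBP2 was nearest to IL1RL1, the receptor of interleukin 33 (0.720), ZFHX4 (0.698) and the matricellular gene CCN3 (0.640). The nearest to IGFBP3 were PKIG (0.700), NDUFA2 (0.677) and TMEM255A (0.642). IGFBP4 had ARPC1A (0.765), PRELID1 (0.758) and PAWR (0.748). The list of IGFBP5 was LOC101929532 (0.684), PRRG3 (0.674) and SLC35C1 (0.659), and that of IGFBP6 was GET3 (0.655), KRTCAP3 (0.654) and FBXO6 (0.617). Of these 30 features 12 remained among the nearest 3 when the marker mean was removed as well. DAG1 is not among the 12, although it stayed nearest to IGF2R through its canine RefSeq feature (rho 0.92).

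The IGF genes were finally set beside 52 other genes of the pathway, 49 of which passed the filter. IGFBP1, IRS4 and IGF2BP1 did not, with 2, 6 and 37 counts over all dogs. In the CHF comparison 0 of 49 had an FDR under 0.1 (0.118% of all features). By unadjusted p under 0.05, 5 were higher and 1 lower in the 10y-MMVD-CHF dogs. The number of pathway genes with such a p was 6 with all dogs, 7 without CAV1047 and 6 without CAV614 (edgeR). The median log2 fold change was 0.05 over the 49 genes, of which 31 were above 0 and 18 below. Of all 19568 features 10295 were above 0, and the counts of signs that follow are descriptions. The list of 20 genes of the PI3K, AKT, mTOR and FOXO branch, through which IGF1R signals, held 15 genes above 0 and 5 below, with a median of 0.06. All 5 genes of the growth hormone axis, which drives IGF1 production, were above 0, with a median of 0.09 and a lowest value of 0.00124, and none had an unadjusted p under 0.05. Among the 9 tested genes of the insulin receptor family and its adaptors 6 were above 0. Of the 7 binding protein proteases and their inhibitors 5 were below 0, and so were 2 of 3 other binding proteins and 3 of 5 regulators of IGF2.

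FOXO3, a transcription factor held out of the nucleus by AKT, ranged from 104 through 127 to 159 CPM in the 10y-noCHF dogs and from 108 through 153 to 221 CPM in the 10y-MMVD-CHF dogs. Of the 15 dogs with CHF 13 were above the other group's median, and the log2 fold change of FOXO3 was 0.25 (p = 0.00385, adjusted p = 0.448, edgeR). STC1, stanniocalcin 1, which inhibits the protease PAPPA, ranged from 31.2 through 62.0 to 141 CPM without CHF and from 11.9 through 46.5 to 82.2 CPM with CHF. It was below the 10y-noCHF median in 12 of 15 dogs, with a log2 fold change of -0.57 (p = 0.00809, adjusted p = 0.558, edgeR). ADAM28, a metalloprotease that cuts IGFBP3, was at a median of 21 CPM without and 29.7 CPM with CHF, with a log2 fold change of 0.40 (p = 0.0439, edgeR).

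The adaptor GRB2 had a log2 fold change of 0.13 (p = 0.0291, edgeR), and 11 of the 15 dogs with CHF exceeded the median of the other group. The catalytic PI3K subunit PIK3CA had one of 0.14 (p = 0.0350, edgeR), with 12 of 15 dogs over that median, and neither gene passed the adjusted threshold. The shares with an unadjusted p under 0.05 were 5 of 49 higher and 1 of 49 lower, beside 2.8% and 3.51% of all features. For sex 0 of 49 had an unadjusted p under 0.05. For the interaction 3 of 49 did, beside 6.02% of all features, among them PIK3CB and SOCS2, which fall outside the rule for named genes and were chosen after their values were seen, and 0 had an FDR under 0.1.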

How the data were processed

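Poly-A RNA of 34 mitral valves was sequenced in paired ends. Per the labels and methods, the authors aligned reads with STAR to canFam4 and deposited raw counts per feature from featureCounts 2.0.3, without strand, with each read given to every feature it overlaps and both reads of a pair counted. Ages and disease stages are not paired with the dogs and could not enter a fit. The table has 35 count columns, of which 1 belongs to no sample used here.

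The 10 IGF genes, the 6 pathway lists (52 genes) and the marker lists were chosen with earlier results of these data known. Canine RefSeq features list exons (median 19.9% of their span) and human alignments whole spans (100%), so levels per length were compared among exon features only, although the planned comparison covered all genes. Each of the 10 features overlapped the gene of the same symbol in RefSeq (UU_Cfam_GSD_1.0), though not always with the same ends. The IGFBP2 feature starts 8479 bases before the RefSeq gene, and the IGF1R feature 1000 bases before it. Coordinates are those of the deposited table, and 3 of them start 1 base before RefSeq. Features whose counts over all dogs summed to 100 or more were tested with edgeR 4.0.16 (quasi-likelihood, TMM, sex as covariate, R 4.3.3, FDR 0.1). SEs and intervals were derived from the test statistic and are approximate. DESeq2 1.42.0, limma 3.58.1 voom, RLE and upper-quartile scaling, filterByExpr, no filter, no sex term, an FDR of 0.05, each sex alone, the symbol-named features and leaving out each dog (for the CHF and sex effects) or CAV614 and CAV1047 (for the other results) were alternatives. The span features in the interaction and marker fits, and slopes within each group, were added after seeing the data. The CHF effect in the fit with sex as covariate was tested on simulated data with edgeR, DESeq2 and voom, and the other fits were not. Correlations used numpy 2.4.6.

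Named genes were the 10 IGF genes, other pathway genes with an unadjusted p under 0.05 for CHF or an FDR under 0.1 for sex or interaction, the 3 features most like each IGF gene that share no bases with it, and the 3 highest and 3 lowest pairs. Of the genes under this rule, 1 is not reported here. No sequences are given.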

Additional observations from a re-analysis of the deposited data

Results flagged for a closer look

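For each IGF gene the highest and the lowest dog of each group and sex were compared with the nearest other dog by Dixon's ratio, the gap divided by the whole range, both on the log2 CPM scale. In 40 such groups 4 dogs stood apart at the 95% level, and chance alone gives about 2.

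IGF2 in the 10y-noCHF males was lowest in CAV749 (0.748 CPM, next dog 2.77 CPM, ratio 0.562). The same dog had the lowest IGFBP3 (0.413 CPM). IGF2R in the 10y-noCHF males was highest in CAV865 (105 CPM, next 69.5 CPM, ratio 0.528). IGFBP2 in the 10y-noCHF females was highest in CAV579 (102 CPM, next 22.6 CPM, ratio 0.531). IGFBP4 in the 10y-MMVD-CHF females was lowest in CAV1047 (27.8 CPM, next 73.3 CPM, ratio 0.779), which is also the dog with the highest cardiomyocyte marker mean (10.8 log2 CPM). The part of heart muscle RNA in that value was not tested.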

How the results depend on the processing

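The number of IGF genes with an FDR under 0.1 for CHF was 0 in all 12 alternatives and without each of the 34 dogs, and that for sex was 0 throughout as well. Of 300 values of single genes under other settings 282 kept their direction and their side of the threshold, and of 720 values with a dog left out 696 did. The sign turned in the values that follow, none of which passed the threshold, and the cause was not tested. For CHF, IGF1R was -0.00267 with the marker mean as a covariate, and IGF1 was -0.22 with its span feature. In females IGFBP2 was -0.10, IGFBP3 -0.25 and IGFBP4 -0.00943, and in males IGF1 was -0.36, IGF1R -0.0147, IGF2R -0.0833 and IGFBP7 -0.0446 (log2). With voom the sex value of IGFBP4 was 0.0194 and the marker slope of IGF1 0.00139. The slopes of IGF1 (0.0149) and IGFBP2 (-0.0121) turned within 10y-noCHF and that of IGF2 (-0.0716) within 10y-MMVD-CHF. With a dog left out, the CHF values ranged from -0.0185 to 0.119 for IGF1, -0.0515 to 0.0746 for IGF1R, -0.0699 to 0.151 for IGFBP3, -0.0738 to 0.0229 for IGFBP5 and -0.0232 to 0.0740 for IGFBP7. The sex values ranged from -0.115 to 0.00700 for IGF1R and -0.0995 to 0.00965 for IGFBP4, where each of the 34 dogs was left out in turn. For the interaction, marker mean, pathway and pair results only CAV614 and CAV1047 were left out. The interaction was then -0.0799 and 0.0945 for IGF1R and 0.00224 and -0.0391 for IGFBP5, in that order, beside -0.11 and -0.02 with all dogs. Without CAV614 or CAV1047, 3 genes passed for the marker mean in place of 4, since IGFBP4 did not pass. The number of pairs past the threshold was 4 without CAV614 and 3 without CAV1047, beside 5 with all dogs. Of the 30 most similar features, matched by feature and not by gene, 12 stayed once the marker mean was removed. With span features the levels per length were 0.433 CPM per kb for IGF1, 1.64 for IGF2 and 0.646 for IGF2R, because introns add length. No paired analysis was possible because the dogs of the groups share no replicate numbers.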
